A study of Mus musculus with 6 samples.

Results

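Retinoic acid is a signalling molecule that cells make from vitamin A (retinol), and the genes described here belong to its synthesis, its binding and the response to it. The set has 9 of the 33460 genes in the deposited tables and was chosen by name, through the symbols that the GENCODE annotation of the NCBIM37 mouse assembly gives to the Ensembl identifiers. *Rbp4* encodes the plasma carrier of retinol, *Rdh10* the enzyme that oxidizes retinol to retinaldehyde, and *Aldh1a1*, *Aldh1a2* and *Aldh1a3* the retinaldehyde dehydrogenases that make retinoic acid from it. *Crabp1* and *Crabp2* encode cellular retinoic acid binding proteins, *Rarb* the retinoic acid receptor beta, and *Cyp26b1* an enzyme that degrades retinoic acid.

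Retinoic acid acts through nuclear receptors, the RARs, which bind DNA as heterodimers with the RXRs at direct repeats of a short half-site. *Rarb* is itself a textbook target of the pathway: its promoter holds such a repeat and its transcription rises when a cell receives retinoic acid. Retinoic acid takes part in patterning of the nervous system, and in the developing brain the fibroblasts of the meninges are a known source of it. *CYP26* enzymes clear it and thereby limit where it can act.

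RNA-seq was done on 3 samples of sorted mural cells and 3 samples of microvascular fragments, all from brain at postnatal day 6. Every animal was a *Pdgfrb-eGFP/NG2-DsRed* mouse and thus carried both reporters, *Pdgfrb-eGFP* (line Tg(Pdgfrb-eGFP)JN169Gsat/Mmucd), in which the *Pdgfrb* promoter drives eGFP, and *NG2-DsRed*, in which the *NG2* promoter drives DsRed. Mural cells, the pericytes and vascular smooth muscle cells of the vessel wall, were taken by FACS as cells positive for both reporters, and the study describes DsRed as weak or not detectable in part of the cells in the walls of arterioles and venules. Microvascular fragments are pieces of small vessels pulled down with beads against CD31, and they hold endothelial cells together with mural cells. The methods state that each of 3 brains was split, with one side for the sort and the other for the fragments, but the replicate numbers are not said to mark the animal, so that the p-values below measure the spread between samples only.

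Values are FPKM, that is sequenced fragments scaled to the exon length of the gene and to the depth of the library, and each difference is given as mural cells minus microvascular fragments on the log2(FPKM + 1) scale. A gene was called higher when the adjusted p of limma was under 0.05 and the ratio of mean FPKM was above 2, and lower when that ratio was under 0.5. The mural cell libraries were shallower: approximately 2.37, 1.04 and 1.05 M read pairs lay on protein-coding genes in mural cell samples 1, 2 and 3, against 5.95, 5.42 and 5.92 M in the microvascular fragments. These are the read pairs behind the FPKM, after the authors had removed duplicates, and not the number sequenced. All 12 markers of mural cells were called higher in the sorted cells, with ratios between 6.47 and 12.5 and a median of 9.10. The markers of other cells also differed: the summed FPKM of 11 fibroblast markers was 521 to 710 in mural cells and 65.9 to 75.8 in the fragments, with 6 of 8 tested called higher, while the sum of 8 microglia markers was 108 to 166 against 1564 to 1806, with 8 of 8 called lower. The sum of 12 endothelial markers was 1664 to 2169 in mural cells and 2259 to 2610 in the fragments, with a median ratio of 0.728. By limma, 1 of the 12 was called lower and 9 had an unadjusted p under 0.05, where 35.0% of all genes tested passed. For 8 astrocyte markers the sums were 205 to 775 against 282 to 411, highest in mural cell sample 3, for 6 markers of oligodendrocyte progenitors 30.3 to 53.6 against 25.6 to 33.9, and for 7 neuronal markers 23.9 to 42.2 against 43.8 to 60.4, and none of these was called in either direction by limma, although 1, 1 and 2 of them had an unadjusted p under 0.05. In bulk samples such as these, fewer cells of a type and less RNA per cell cannot be told apart.

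Of the 9 genes, 6 reached an FPKM of 1 in 3 or more samples, the filter for testing, and 3 did not. By limma, *Rarb* was called higher in mural cells and *Cyp26b1* lower, and *Rdh10*, *Aldh1a1*, *Aldh1a2* and *Crabp2* were not called. Of all 14801 genes tested, 6.43% were called higher and 10.1% lower. At an unadjusted p under 0.05 the count over the 9 genes was also 2, where 35.0% of all genes tested passed.

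The receptor gene *Rarb* was the member with the highest level in the sorted cells. Its 3 mural cell samples held 13.8, 14.7 and 13.8 FPKM, and the microvascular fragments held 2.59, 1.50 and 1.30 FPKM. The mural cell samples lay close together and every one of them was above every sample of the fragments, the lowest being 5.34 times the highest of the other group. The means were 14.1 ± 0.526 FPKM (SD, n = 3) and 1.80 ± 0.690 FPKM (SD, n = 3), a ratio of 7.85. On the log2 scale the difference was 2.46 (SE 0.26, 95% interval 1.86 to 3.06, adjusted p = 6.8e-04 by limma). The ratio lay within the range of ratios of the 12 mural cell markers (6.47 to 12.5). It also lay within that of the 8 tested fibroblast markers (1.59 to 12.9). The values rest on approximately 69, 31 and 31 read pairs in the mural cells and 33, 18 and 17 in the fragments. Without fragments replicate 1, which had the highest *Rarb* of that group, the ratio was 10.1, and without any other single sample it lay between 6.90 and 7.93. The fibroblast markers, of which 6 of 8 tested also rose in the sorted cells, were not absent from either group, except *Dpt*, which was listed at 0 in every sample of the fragments, and their part in the value of *Rarb* was not tested.

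**Figure D1:**
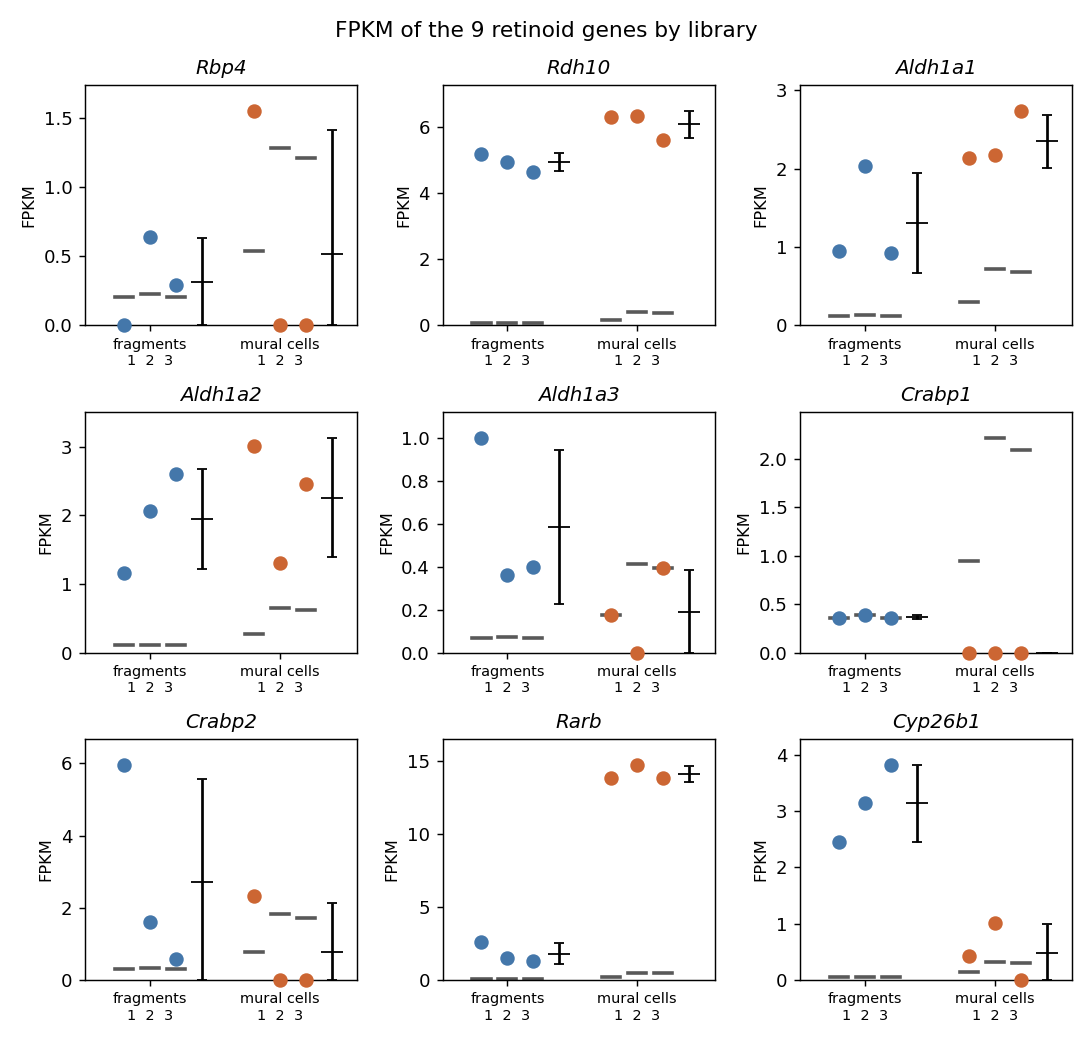
FPKM (linear y axis, separate scale in each panel) of the 9 retinoid genes in microvascular fragments (blue) and mural cells (orange), samples 1 to 3. Points are samples, the cross line and bar are the mean and SD over 3 samples, drawn down to 0 at most, and grey dashes mark the FPKM that 1 read pair is worth in that sample. *Rarb* is at 13.8 to 14.7 in mural cells against 1.30 to 2.59 in fragments, *Cyp26b1* runs the other way, and the points of *Crabp1* in the fragments lie on the dashes.

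*Rarb* (ENSMUSG00000017491) lies on the minus strand of chromosome 14, from 17263356 to 17651381 in NCBIM37, with 3 annotated transcripts, and no annotated gene overlaps it. Because the pathway acts through direct repeats in promoters, the 250 bases before and 50 bases after each RefSeq transcription start (GRCm38.p6) were searched on both strands for 2 half-sites in the same direction, each with the letters AGGTCA, with the letters AGTTCA, with the letters GGGTCA or with the letters GGTTCA, separated by 5 bases (DR5), 2 bases (DR2) or 1 base (DR1). A window was given for 6 of the 9 genes and for 47 of the 64 genes of a wider list of the retinoid pathway. The DR5 letters were found in 32 of 32851 windows (0.0974%), DR2 in 88 (0.268%) and DR1 in 73 (0.222%). Among the 67 windows of the wider list, DR5 was found in 2, those of *Rarb* and *Cyp26a1*, a second enzyme of retinoic acid degradation, DR2 in 0 and DR1 in 1, that of *Bco1*. A match describes letters in a window and not a bound site. The repeat of *Rarb* was known beforehand, as stated above, so that finding it was no test of these samples. In *Rarb* the repeat lay on the strand of the gene from 53 to 37 bases before the start (-53 to -37), and this start is 4 bases from that of the transcript Rarb-202 in the annotation of the files. In *Cyp26a1* it lay on the opposite strand, at -32 to -16. None of the 3 repeats was found in the window of *Cyp26b1*. Of the wider list, *Nr2f1*, *Nr2f2* and *Rarres2* were also called higher. None of the repeats was found in the windows of *Nr2f1* and *Nr2f2*, and no window was given for *Rarres2*. For *Rarb*, *Cyp26a1* and *Cyp26b1* the 250 bases before each start are shown 5′ to 3′ on the strand of the gene, with the repeat in capitals. The sequences were taken from RefSeq (GRCm38.p6).

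*Rarb*, chr14:16575477-16575726, minus strand: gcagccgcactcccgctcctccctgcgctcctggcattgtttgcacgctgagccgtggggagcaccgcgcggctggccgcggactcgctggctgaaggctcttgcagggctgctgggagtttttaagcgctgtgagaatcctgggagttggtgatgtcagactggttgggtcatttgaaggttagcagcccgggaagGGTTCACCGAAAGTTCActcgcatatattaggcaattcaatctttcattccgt

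*Cyp26a1*, chr19:37697558-37697807, plus strand: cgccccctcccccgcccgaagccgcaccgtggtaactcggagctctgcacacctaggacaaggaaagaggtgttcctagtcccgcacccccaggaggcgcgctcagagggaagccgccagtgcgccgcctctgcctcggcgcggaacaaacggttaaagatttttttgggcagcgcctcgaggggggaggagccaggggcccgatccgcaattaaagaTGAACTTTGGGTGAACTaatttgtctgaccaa

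*Cyp26b1*, chr6:84593811-84594060, minus strand: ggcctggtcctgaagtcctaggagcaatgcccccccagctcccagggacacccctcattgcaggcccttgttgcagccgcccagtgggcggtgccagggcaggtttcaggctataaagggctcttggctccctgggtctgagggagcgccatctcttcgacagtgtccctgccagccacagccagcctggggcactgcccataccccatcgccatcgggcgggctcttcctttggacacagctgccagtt

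The share of *Rarb* among the 3 genes for retinoic acid receptors was larger in mural cells. It is computed from the same *Rarb* values as above and is not a separate observation. *Rarb* made up 23.6, 20.9 and 19.2% of the summed FPKM of *Rara*, *Rarb* and *Rarg* in mural cell samples 1, 2 and 3, and 5.42, 3.79 and 3.88% in the fragments, so that the groups did not overlap. *Rarg* held the largest share of the 3 in every mural cell sample, 48.9 to 58.6%, and *Rara* held 22.2 to 27.4%. In the fragments *Rara* and *Rarg* were closer to each other, with 43.8 to 49.8% and 44.8 to 52.4%. Together the 3 receptors came to 58.3, 70.5 and 71.9 FPKM in mural cells, against 47.7, 39.6 and 33.6 FPKM in fragments.

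**Figure D2:**
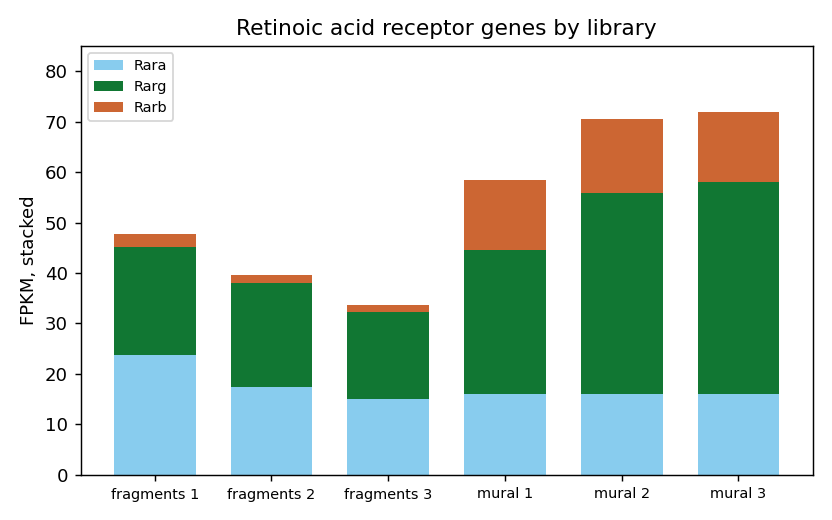
Stacked FPKM (linear y axis from 0) of *Rara* (light blue), *Rarg* (green) and *Rarb* (orange) in each of the 6 samples. The *Rarb* segment is 13.8 to 14.7 FPKM in the 3 mural cell samples and 1.30 to 2.59 FPKM in the 3 samples of fragments, while the *Rara* segment overlaps between the groups.

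The other receptors did not pass both thresholds. *Rara* was 16.0, 16.1 and 16.0 FPKM in mural cells and 23.7, 17.3 and 15.0 FPKM in fragments, with overlap between the groups (log2 difference -0.19, 95% interval -0.65 to 0.27, adjusted p = 0.552 by limma). *Rarg* was 28.6, 39.7 and 42.1 FPKM in mural cells and 21.4, 20.7 and 17.3 FPKM in fragments, without overlap. Its adjusted p was 0.0163 by limma, but the ratio of means was 1.86, under the threshold of 2. It was called higher when mural cell replicate 1 was left out, with a log2 difference of 1.01. Of the RXR genes, which encode the heterodimer partners, *Rxrb* had a ratio of 1.42 (adjusted p = 0.0371 by limma) and *Rxra* a ratio of 0.930 (adjusted p = 0.741), and *Rxrg* was near 1 FPKM in both groups (means 0.872 and 0.978 FPKM) and was not tested.

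*Cyp26b1* (ENSMUSG00000063415; chromosome 6, 84521938 to 84543740, minus strand, NCBIM37) was the only one of the 9 genes called lower in mural cells. Microvascular fragments held 2.46, 3.14 and 3.82 FPKM, and mural cells 0.427, 1.02 and 0 FPKM. Every sample of the fragments was above every mural cell sample, as for 24.5% of the genes tested, and mural cell sample 3 was listed at 0. The means were 0.482 ± 0.512 FPKM (SD, n = 3) in mural cells and 3.14 ± 0.683 FPKM (SD, n = 3) in fragments, a ratio of 0.154. The log2 difference was -1.53 (SE 0.35, 95% interval -2.34 to -0.71, adjusted p = 0.0189 by limma). The gene passed the filter through the fragments and, just above an FPKM of 1, mural cell sample 2. The mural cell values rest on approximately 3, 3 and 0 read pairs, against 48, 57 and 76. The ratio was 0.0680 without mural replicate 2 and 0.230 without mural replicate 3. The call was lost, with the direction kept, when any one sample of the fragments was left out (adjusted p = 0.0843, 0.112 and 0.141 without fragments replicates 1, 2 and 3), with a pseudocount of 0.1 (adjusted p = 0.0633) and with quantile normalization (adjusted p = 0.0967). The microglia and choroid plexus markers were lower in the sorted cells as well, the latter with a summed FPKM of 207 to 271 against 672 to 1434 and 5 of 6 called lower, and no marker of either list was at 0 in every mural cell sample. Their part in the value of *Cyp26b1* was not tested.

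Of the 4 enzyme genes of synthesis among the 9, *Rdh10* (ENSMUSG00000025921; chromosome 1, 16095855 to 16123815, plus strand) had the highest level. It was 6.30, 6.35 and 5.62 FPKM in mural cells and 5.19, 4.95 and 4.66 FPKM in fragments. The mural cell samples were all above those of the fragments, as for 16.5% of the genes tested, the lowest of them being 1.08 times the highest of the fragments. The ratio was 1.23, and the log2 difference of 0.26 (SE 0.21, 95% interval -0.25 to 0.76, adjusted p = 0.446 by limma) did not pass the test. It was one of the better covered genes of the set, with 38, 16 and 15 read pairs in mural cells and 80, 71 and 73 in fragments.

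The 3 retinaldehyde dehydrogenases were all low. *Aldh1a1* (ENSMUSG00000053279; chromosome 19, 20676451 to 20717952, plus strand) was 2.13, 2.17 and 2.74 FPKM in mural cells and 0.944, 2.04 and 0.927 FPKM in fragments. The groups did not overlap, but fragments sample 2 came close to the mural cells, and the log2 difference of 0.57 (95% interval -0.14 to 1.28, ratio 1.80) was not called (adjusted p = 0.227 by limma). The mural cell values stand on 7, 3 and 4 read pairs. Reads of *Aldh1a1* can be hard to tell from those of its close paralog *Aldh1a7*, whose highest value was 0.345 FPKM in fragments and which was listed at 0 in every mural cell sample.

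*Aldh1a2* (ENSMUSG00000013584; chromosome 9, 71063596 to 71144050, plus strand) was 3.01, 1.30 and 2.46 FPKM in mural cells and 1.17, 2.06 and 2.60 FPKM in fragments. The groups overlapped, with a log2 difference of 0.14 (95% interval -0.66 to 0.94, adjusted p = 0.808 by limma), and the sign changed to -0.066 without fragments replicate 1 and to -0.029 without mural replicate 1. An interval of this width includes a substantial difference in either direction, so that a difference was not detectable at this depth. *Aldh1a3* (ENSMUSG00000015134; chromosome 7, 73535778 to 73572403, minus strand) was 0.174, 0 and 0.392 FPKM in mural cells, from 1, 0 and 1 read pairs, and 0.999, 0.361 and 0.398 FPKM in fragments, and was not tested. *Aldh8a1*, a more distant member of the family with retinaldehyde as a substrate, was listed at 0 in every mural cell sample and at 0.287 FPKM or less in fragments.

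Taken as a sum over *Aldh1a1*, *Aldh1a2* and *Aldh1a3*, the retinaldehyde dehydrogenases came to 5.31, 3.48 and 5.59 FPKM in mural cells and 3.11, 4.46 and 3.93 FPKM in fragments, with overlap between the groups. *Aldh1a3* gave 32.1% of the sum in fragments sample 1 and 10.1% or less in each of the other 5 samples. Within mural cells, the order of *Aldh1a1* and *Aldh1a2* differed from sample to sample: *Aldh1a2* led in sample 1, with 56.6% of the sum, and *Aldh1a1* in samples 2 and 3, with 62.6 and 49.0%.

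The carrier and binding proteins were near the limit of the mural cell libraries. *Crabp2* (ENSMUSG00000004885; chromosome 3, 87752588 to 87757298, plus strand) was 2.33, 0 and 0 FPKM in mural cells and 5.96, 1.61 and 0.586 FPKM in fragments. It varied more among the samples of the fragments than any other of the 9 genes did, and the groups overlapped (log2 difference -1.04, SE 0.68, 95% interval -2.63 to 0.56, adjusted p = 0.328 by limma). The summed FPKM of 6 choroid plexus markers, most of it *Ttr*, followed the same order over fragments samples 1, 2 and 3, with 1434, 914 and 672. Whether *Crabp2* came with that tissue was not tested.

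*Crabp1* (ENSMUSG00000032291; chromosome 9, 54612555 to 54620917, plus strand) was 0.360, 0.389 and 0.356 FPKM in the fragments, which is 1 read pair in each sample, and was listed at 0 in the 3 mural cell samples. In those, 1 read pair would have been worth 0.940, 2.21 and 2.09 FPKM, and a count of 0 allows up to 2.82, 6.64 and 6.28 FPKM (3 read pairs), which lies above the values of the fragments. *Rbp4* (ENSMUSG00000024990; chromosome 19, 38191110 to 38199811, minus strand) was 1.55, 0 and 0 FPKM in mural cells, from approximately 3 read pairs in sample 1, and 0, 0.643 and 0.293 FPKM in fragments. Neither gene was tested, and no difference between the groups was detectable at this depth.

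Set beside each other, the 9 genes had a different order in the 2 groups. In mural cells *Rarb* was first and *Rdh10* second, each without overlap with the next, while *Aldh1a1*, *Aldh1a2*, *Crabp2*, *Rbp4*, *Cyp26b1*, *Aldh1a3* and *Crabp1* followed in this order of means with no separation between neighbours. In the fragments *Rdh10* was first and did not overlap with *Cyp26b1*, and *Crabp2*, *Aldh1a2*, *Rarb*, *Aldh1a1*, *Aldh1a3*, *Crabp1* and *Rbp4* came after, each overlapping with the next. FPKM are per length of the gene and can be ranked in this way. Against the mean FPKM of all genes tested, *Rarb* stood above 54.1% of them in mural cells and above 8.89% in fragments, *Rdh10* above 33.1 and 27.0%, and *Cyp26b1* above 4.15 and 18.4%. Summed, the 9 genes came to 29.7, 25.5 and 25.0 FPKM in the mural cell samples, against 19.7, 16.7 and 14.9 FPKM in fragments. *Rarb* alone gave 13.8, 14.7 and 13.8 FPKM of the sums in mural cells, the largest part in every sample. In fragments it gave 2.59, 1.50 and 1.30 FPKM. The higher sum in mural cells thus rests on *Rarb* and does not describe the other genes of the set.

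The wider list of the retinoid pathway had 64 genes, of which 38 were tested, 17 were at 0 in every mural cell sample and 7 were at 0 in all 6 samples. By limma 4 of the 38 were called higher, 4 lower and 30 neither, and 18 had an unadjusted p under 0.05, where the shares over all genes tested were 6.43% higher, 10.1% lower and 35.0% at an unadjusted p under 0.05. The median log2 difference over the 38 genes was 0.09, and over all genes tested it was -0.12. Without the 9 genes above, 3 of 32 tested genes were called higher and 3 lower. Both counts of lower genes include *Rbpr2* and *Bco2*, which passed the filter through the fragments alone. With every mural cell value under 1 FPKM, a call of higher was not open to these genes.

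**Figure D3:**
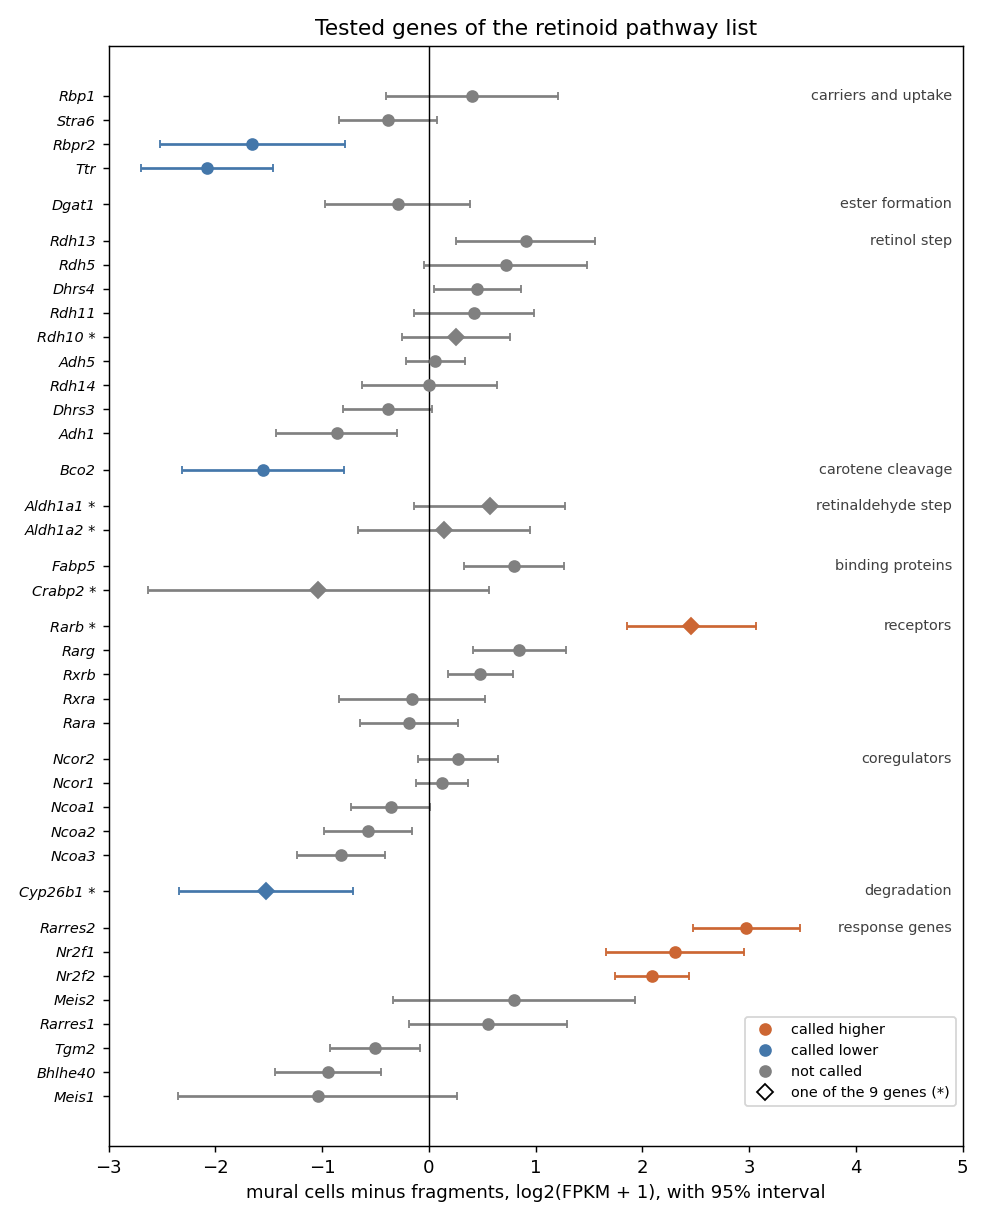
Difference between mural cells and microvascular fragments on the log2(FPKM + 1) scale (x axis) for the 38 tested genes of the retinoid pathway list, grouped by role, with 95% intervals from limma. Orange marks genes called higher, blue those called lower, grey those not called, and diamonds and asterisks the genes of the set of 9. *Rarb* at 2.46 stands apart from the other receptors, and 3 of the 4 genes called higher are in the group of response genes.

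The 3 further genes called higher are all in the group of response genes, which had 12 listed and 8 tested. *Rarres2*, named as a retinoic acid receptor responder and encoding the secreted protein chemerin, was 67.2, 94.98 and 70.1 FPKM in mural cells and 10.6, 9.66 and 6.74 FPKM in fragments. No sample of one group reached the other, and the ratio was 8.60 (log2 difference 2.97, SE 0.21, adjusted p = 1.7e-04 by limma). *Nr2f1* and *Nr2f2* encode the COUP-TF orphan nuclear receptors, which respond to retinoic acid in several cell types. *Nr2f1* was 31.5, 53.0 and 26.6 FPKM in mural cells and 6.26, 5.47 and 7.56 FPKM in fragments (ratio 5.76, log2 difference 2.30, SE 0.27, adjusted p = 0.00125 by limma). *Nr2f2* was 129, 180 and 159 FPKM in mural cells and 33.2, 38.6 and 35.3 FPKM in fragments (ratio 4.38, log2 difference 2.09, SE 0.15, adjusted p = 1.7e-04 by limma). For both genes the groups lay apart. *Rarres2* overlaps *Lrrc61* and *Nr2f1* overlaps *A830082K12Rik* on the opposite strand, with 15.2 and 9.29 FPKM in mural cells and 9.67 and 1.75 FPKM in fragments, and although the library kit was stranded, whether strand was used to compute FPKM is not given in the sources used here.

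The 3 further genes called lower were listed for the supply of retinol and carotenoids. *Ttr* encodes transthyretin, which carries RBP4 in plasma and is a main product of the choroid plexus. It was 195, 244 and 208 FPKM in mural cells and 1358, 872 and 638 FPKM in fragments (ratio 0.226, log2 difference -2.08, adjusted p = 0.00159 by limma), and it is also in the list of choroid plexus markers. The gene taken for *Rbpr2* (ENSMUSG00000075027, chromosome 2) was 0.208, 0 and 0.469 FPKM against 4.69, 2.72 and 1.61 FPKM (log2 difference -1.65, adjusted p = 0.0177 by limma). It was matched by symbol only, and whether it encodes the receptor for RBP4 was not checked. *Bco2*, a carotene cleaving enzyme, was 0.588, 0 and 0 FPKM against 2.05, 3.20 and 2.13 FPKM (log2 difference -1.55, adjusted p = 0.0135 by limma). *Rbpr2* and *Bco2* passed the filter through the fragments alone and could no longer be tested when any sample of the fragments was left out. The call of *Rbpr2* was lost with quantile normalization (adjusted p = 0.0699), and it overlaps *Prdm11* on the opposite strand.

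No other role had a call. None of the 9 tested genes of the retinol step, out of 18 listed, was called by limma, with 3 at an unadjusted p under 0.05, and none of 5 coregulator genes was, with 2 at an unadjusted p under 0.05, a level that 35.0% of all genes tested passed. *Fabp5*, which encodes a fatty acid binding protein that can also carry retinoic acid, was 369, 307 and 358 FPKM in mural cells and 174, 164 and 268 FPKM in fragments, a ratio of 1.71 that did not reach 2 (adjusted p = 0.0266 by limma). In the other direction, *Ncoa3*, *Bhlhe40* and *Adh1* had ratios of 0.548, 0.514 and 0.532, not under 0.5 (adjusted p = 0.0149, 0.0180 and 0.0406 by limma). Of the other degrading enzymes, *Cyp26a1* was 0.359, 0 and 0 FPKM in mural cells and 0.417, 0.450 and 0 FPKM in fragments, and *Cyp26c1* was listed at 0 in every mural cell sample and at 0.457 FPKM or less in fragments, so that neither was tested.

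The genes with the pattern most like that of *Rarb* over the 6 samples were *Mark1*, *Adamts8* and *C1qtnf1*. Likeness was measured as the root mean square difference in log2(FPKM + 1) after each gene was centred on its own mean, and it was 0.08 for *Mark1*, 0.10 for *Adamts8* and 0.11 for *C1qtnf1*. *Mark1*, which encodes a microtubule affinity regulating kinase, was 31.2, 39.0 and 32.4 FPKM in mural cells and 7.61, 4.68 and 4.06 FPKM in fragments, and thus followed *Rarb* also in being highest in fragments sample 1. *Adamts8*, a secreted metalloprotease, and *C1qtnf1*, a secreted C1q and TNF related protein, had means of 43.3 and 51.2 FPKM in mural cells and 7.39 and 9.23 FPKM in fragments. Only 1 gene lay within 0.1 of *Rarb* and 28 within 0.2. For *Rdh10*, whose values hardly varied, 189 genes lay within 0.1 and 1924 within 0.2, the closest being *Tm2d1*, *Rab2a* and *Psmd3* (0.03, 0.04 and 0.04). For *Aldh1a2*, no gene lay within 0.1 and 68 within 0.2, the closest being *RP23-335C3.6*, *Thyn1* and *Araf* (0.11, 0.12 and 0.13). The 6 points of each profile fall into the 2 groups compared above, so that a likeness to *Rarb* is mostly the difference between them.

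**Figure D4:**
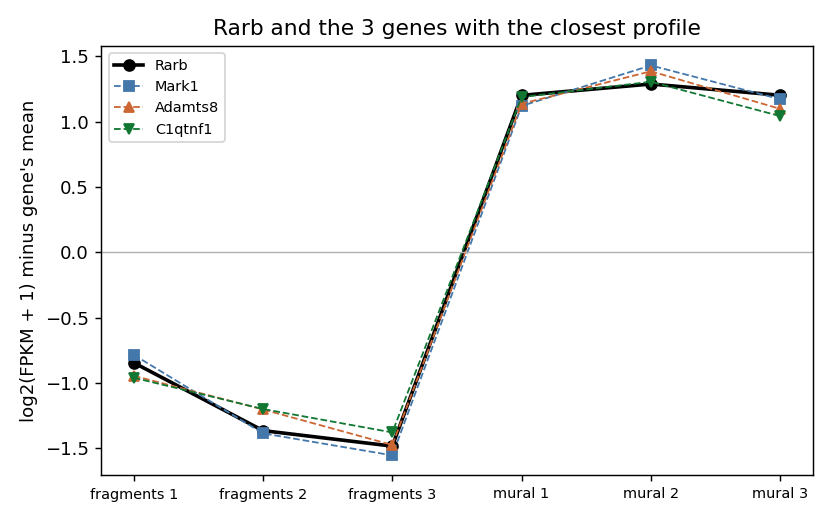
Log2(FPKM + 1) minus the mean of the gene over the 6 samples (y axis) for *Rarb* and the 3 genes with the smallest root mean square difference from it, by sample (x axis). Lines only join the points of a gene. All 4 genes are near 1.04 to 1.43 in mural cells and near -0.78 to -1.55 in fragments.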

How the data were processed

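Paired-end RNA-seq was made from 3 samples of sorted mural cells and 3 of microvascular fragments, at postnatal day 6. The deposited values are FPKM, 1 file per sample with no pooling. The authors aligned reads to NCBIM37 with TopHat2 2.0.4, removed duplicates (Picard 1.92) and obtained FPKM from Cufflinks 2.2.1. The library kit was stranded (SMARTer Stranded Total RNA), but whether FPKM were computed by strand, and the scaling between libraries, are not given in the sources used here, and median-ratio factors lay between 0.993 and 1.022.

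Repeated lines of 9 identifiers were dropped. Log2(FPKM + 1) was fitted with limma 3.58.1 (R 4.3.3, with an intensity trend), and p-values were adjusted by Benjamini-Hochberg over all 14801 genes that reached an FPKM of 1 in 3 or more samples. FPKM are not counts, so no test for counts was used. In single-transcript genes 97.7 to 98.8% of low values (up to 8 read pairs) were within 0.05 of a whole number of read pairs, which gave the read pairs behind each value. They are approximate where a gene has several transcripts, since the longest was used.

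The genes, the lists and the tests were chosen with earlier results of these data known. Named are the 9 genes, the receptors, retinaldehyde dehydrogenases and called genes of the pathway list, and the 3 genes most like each of the 3 tested members with the highest mean FPKM. *Bco1*, *Fabp5*, *Ncoa3*, *Bhlhe40*, *Adh1*, *Cyp26a1*, *Cyp26c1*, *Dpt* and the overlapping genes were named after their values were seen. Python 3.11.15 was used for other steps.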

Additional observations from a re-analysis of the deposited data

How the results depend on the processing

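*Rarb* was called higher under each of the 14 alternatives (log2 difference 2.33 to 2.96, adjusted p = 3.9e-04 to 0.00408 by limma), as were *Rarres2*, *Nr2f1* and *Nr2f2*. Calls of lower genes depended on the processing. Over all genes 1493 were called lower, 948 with a filter at an FPKM of 5, and between 607 and 1733 with a single sample left out, the 3 lowest counts (654, 702 and 607) being those without fragments replicates 1, 2 and 3. With quantile normalization the split was 1185 higher and 1105 lower, against 952 and 1493. The causes of these shifts were not tested, beside that fewer genes are tested at an FPKM of 5 and fewer samples enter when one is left out.

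Of the 9 genes, 1 was called lower, and 0 were with a filter at an FPKM of 5 (2 genes tested), a pseudocount of 0.1 or quantile normalization, 2 with no filter and 0 to 1 with a single sample left out. The second gene with no filter was *Crabp1* (log2 difference -0.45, adjusted p = 0.0297 by limma), which rests on 1 read pair in each sample of the fragments. *Cyp26b1* kept its direction and its call in 8 of its 13 alternatives. In the pathway list 4 genes were called lower, 1 with a filter at an FPKM of 5, 2 with quantile normalization and 1 to 6 with a single sample left out. The sign changed for *Aldh1a2* without fragments replicate 1 (-0.066) and without mural replicate 1 (-0.029), and for *Rxra* without mural replicate 2 (0.10). With a single sample left out the values ran from -0.066 to 0.37 for *Aldh1a2* and from -0.46 to 0.10 for *Rxra*, none of them called.

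With the replicate number as a block, 900 genes were called higher and 1344 lower, and the calls of the 6 tested genes of the set, of the other tested receptors and of *Rarres2*, *Nr2f1*, *Nr2f2*, *Ttr*, *Rbpr2* and *Bco2* did not change. Calls of the marker genes were not compared under the block. Across genes, the deviations of samples from their group mean correlated at 0.08, 0.02 and 0.05 between samples of the same number and at -0.06 to 0.01 between other numbers. Every sample correlated best with its own number, which is a hint from the data and not from the design.

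The low depth in mural cells limits the values of *Rbp4*, *Crabp1*, *Crabp2*, *Aldh1a3* and *Cyp26b1*, each with at most 7 read pairs over the 3 samples, and read pairs measure counting error only. Leaving out genes at 0 in every sample of a group was an alternative chosen after the data were seen.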
